A study of Mus musculus with 5 samples.

Results

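The unfolded protein response genes examined here were 10 named genes (Hspa5, Ddit3, Atf4, Xbp1, Herpud1, Creld2, Sdf2l1, Dnajb9, Hsp90b1 and Pdia4) of the 31053 genes listed in each library, taken by their symbols. They were followed in hepatocytes of mouse liver, and then in the other cells of the same libraries. A barcode was taken as a hepatocyte when it held at least 5000 unique molecular identifiers (UMIs, each standing for 1 captured RNA molecule), 10% to 30% UMIs of mitochondrial genes, and at least 1% UMIs of the liver secretory genes Alb, Apoa1 and Ttr together. This rule gave 2106 hepatocytes in postnatal day 14 liver (P14) and 925 in adult control liver, and 1170, 719 and 771 hepatocytes in liver taken 24, 48 and 96 h after partial hepatectomy (PHx).

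PHx takes away the greater share of the liver, after which the remaining hepatocytes divide. All mice were C57BL/6J. The P14 mice were normal and unoperated, and surgery was done on adults 8 weeks old. The adult control is taken as 8 weeks old too. Liver cells were released by 2-step perfusion, cleared of dead cells on a kit and sequenced as 10x v3 droplet libraries, with 1 library per group. On the adult control the labels disagree: its title and source call it a control, while the treatment text counts it among the operated samples; it is treated here as the control. Its sample description also carries another lane-like code than those of the other 4 libraries, so whatever that code marks cannot be told apart from the control group. The number and the sex of the mice are not stated in the labels.

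With 1 library per group no p-value or replicate error can be given. Each level below is a count per 1000000 UMIs without mitochondrial genes (CPM), summed over the hepatocytes of a library, and each interval is a 95% exact interval that covers counting error only. A difference is a log2 ratio of CPM with a pseudocount of 1 CPM (its interval is computed without it), and a gene is called higher or lower when it is at least 2-fold apart, beside the share of all tested genes (at least 5 CPM in either library) that passed the same fold. The hepatocytes held a median of 18527 to 38922.5 UMIs per cell, deepest in P14 and at 48 h. All 8 hepatocyte markers checked were detected in every library, and the Alb, Apoa1 and Ttr share had medians of 11.2% in P14, 2.86% in adult control liver, and 2.10%, 2.62% and 5.77% after 24, 48 and 96 h. Summed markers of T or NK cells (2.40 to 20.1 CPM), B cells (2.15 to 6.99 CPM) and endothelial cells (11.5 to 23.1 CPM) were low in hepatocytes. Summed plasmacytoid dendritic markers, in contrast, were at 179 CPM in P14, 286 CPM in the adult control, and 232, 235 and 391 CPM at 24, 48 and 96 h, and mesenchymal markers at 46.8 CPM in P14 against 4.03 to 11.2 CPM elsewhere. In all, 3 hepatocyte barcodes were shared between pairs of libraries. Summed neutrophil markers were at 66.1 CPM in P14, 30.8 CPM in the adult control, and 131, 206 and 55.8 CPM at 24, 48 and 96 h, and summed erythroid markers at 124, 722, 524, 763 and 326 CPM; 0 or 1 of the 8 markers of each list was undetected in a library, and their part in the results was not tested.

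The unfolded protein response is the signalling that adjusts the endoplasmic reticulum to its load of unfolded proteins, which matters in hepatocytes because they secrete most plasma proteins. IRE1 splices the Xbp1 message into that of an active transcription factor, PERK slows translation while favouring that of Atf4, which in turn raises Ddit3 (the protein CHOP), and ATF6 is cut into a transcription factor that acts on chaperone genes. Counts of UMIs per gene show neither the splicing of Xbp1 nor the translation of Atf4.

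The promoters of the members that hold a known endoplasmic reticulum stress element are shown because these elements are where ATF6 and XBP1 are known to act on chaperone genes. All 10 members were found in the RefSeq promoter table (GRCm38.p6, the mm10 build), and the 250 bases before the start site were searched on both strands for 4 motifs. The first, the stress element ERSE (CCAAT and CCACG separated by 9 bases), was present in 3 of 10 members and in 37 of 32851 promoters (0.113%). Hspa5 held it 65 to 47 bases before the start, Creld2 on the opposite strand 126 to 108 bases before the start, and Hsp90b1 both at 212 to 194 bases on the gene's strand and at 107 to 89 bases on the opposite strand. The second, ERSE-II (ATTGG and CCACG separated by 1 base), was present in Herpud1, 52 to 42 bases before the start, and in 10 of all promoters (0.0304%). The third, TGACGTG, lies in the XBP1 and ATF6 response element and was present in Hspa5, 157 to 151 bases before the start, and in 1.65% of all promoters. The last, TGATG and AAT separated by 1 base, is 1 spelling of sites of ATF4 with C/EBP factors. In these exact letters it was present in no member and in 0.816% of promoters. Other spellings and bases farther from the start were not searched, so this does not show that the members lack such sites. None of the matches overlapped another. For Herpud1, Xbp1 and Pdia4 the bases after the RefSeq start were found in no GENCODE M21 transcript of the gene, so their start, and with it the window searched, is less sure. A match describes letters in this window and is not a measured binding site. The counts hold for exact letters only, and a site cut by the edge of the window was missed. The Herpud1 window ends in CCAAT, 9 bases and CCAC, so a full ERSE could not be read there. In the sequences below, written 5′ to 3′ on the gene's strand and ending at the base before the start, capitals mark the fixed letters of the motifs; a match on the opposite strand reads CGTGG and then ATTGG. They lie at chr2:34771840-34772089 (Hspa5, plus strand), chr15:88819396-88819645 (Creld2, plus strand), chr10:86705445-86705694 (Hsp90b1, minus strand) and chr8:94386179-94386428 (Herpud1, plus strand).
Hspa5: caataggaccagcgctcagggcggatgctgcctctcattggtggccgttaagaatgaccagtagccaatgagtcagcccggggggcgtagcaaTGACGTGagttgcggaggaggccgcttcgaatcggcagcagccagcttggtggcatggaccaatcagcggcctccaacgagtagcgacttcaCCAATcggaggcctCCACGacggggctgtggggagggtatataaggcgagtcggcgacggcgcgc
Creld2: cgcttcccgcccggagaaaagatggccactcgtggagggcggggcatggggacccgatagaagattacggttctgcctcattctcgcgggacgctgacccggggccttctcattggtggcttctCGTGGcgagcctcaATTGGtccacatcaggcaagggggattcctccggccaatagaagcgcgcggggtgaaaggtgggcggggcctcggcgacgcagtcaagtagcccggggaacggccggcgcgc
Hsp90b1: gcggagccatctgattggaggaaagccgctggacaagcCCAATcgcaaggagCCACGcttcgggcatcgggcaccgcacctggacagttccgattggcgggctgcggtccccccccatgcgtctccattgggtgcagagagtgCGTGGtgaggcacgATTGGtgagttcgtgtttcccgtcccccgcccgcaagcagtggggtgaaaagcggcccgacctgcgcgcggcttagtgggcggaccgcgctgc
Herpud1: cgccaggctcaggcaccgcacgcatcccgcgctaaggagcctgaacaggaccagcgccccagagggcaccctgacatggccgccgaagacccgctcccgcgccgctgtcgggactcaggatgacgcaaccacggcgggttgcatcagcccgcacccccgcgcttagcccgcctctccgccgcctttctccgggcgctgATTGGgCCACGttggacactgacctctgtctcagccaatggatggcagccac

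Among the chaperones, Hspa5 (BiP, the main Hsp70 chaperone of the endoplasmic reticulum, which also keeps the sensors of the response inactive) stood at 475 CPM in P14, 931 CPM in the adult control, and 1151, 1209.6 and 932 CPM at 24, 48 and 96 h. The half-width of its counting interval was at most 1.76% of the level. P14 was lowest, the adult control and 96 h overlapped in their intervals, and 24 h and 48 h were above both. Hsp90b1 (GRP94, the Hsp90 of the same compartment) stood at 586 CPM in P14, 972 CPM in the adult control, and 991, 1264 and 1130.1 CPM at 24, 48 and 96 h. Again P14 was lowest and 48 h highest, and the adult control and 24 h overlapped. Pdia4, a protein disulfide isomerase that forms and rearranges disulfide bonds, stood at 82.2 CPM in P14, 140.2 CPM in the adult control, and 182, 173 and 153 CPM at 24, 48 and 96 h. Its highest library was 24 h, whose interval overlapped that of 48 h.

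Dnajb9 (ERdj4, a J-domain partner of BiP) stood at 44.8 CPM in P14, 77.6 CPM in the adult control, and 97.9, 119 and 93.9 CPM at 24, 48 and 96 h. The 3 libraries after PHx were all above the adult control, and 24 h and 96 h overlapped each other. Sdf2l1, another cofactor in the BiP chaperone cycle, stood at 9.07 CPM (8.35 to 9.84) in P14, 56.7 CPM (52.7 to 60.9) in the adult control, and 62.6, 73.0 and 49.9 CPM at 24, 48 and 96 h. Creld2, a secreted and reticulum-resident protein with disulfide isomerase activity, stood at 15.3 CPM (14.3 to 16.3) in P14, 60.1 CPM (56.0 to 64.4) in the adult control, 59.1 and 68.7 CPM at 24 h and 48 h, and 25.2 CPM (22.6 to 28.1) at 96 h. Both Sdf2l1 and Creld2 were lowest in P14 and highest at 48 h, and Creld2 was also low at 96 h, below the other adult libraries.

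Herpud1, a membrane protein of the pathway that sends misfolded proteins to degradation, was below the adult control in every operated library. It stood at 373 CPM in P14, 604 CPM in the adult control, and 353, 369 and 411 CPM at 24, 48 and 96 h. P14, 24 h and 48 h lay close together, with 24 h overlapping 48 h and 48 h overlapping P14.

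Of the transcription factors, Xbp1 stood at 127 CPM in P14, 439.7 CPM in the adult control, and 408, 262 and 394 CPM at 24, 48 and 96 h. It was lowest in P14 and, among adults, lowest at 48 h, the library in which 5 of the 6 chaperones and cofactors above were highest. Atf4 stood at 53.4 CPM in P14, 67.1 CPM in the adult control, and 66.4, 80.6 and 93.5 CPM at 24, 48 and 96 h, with the adult control and 24 h overlapping. Ddit3 was the sparsest member, at 6.71 CPM (6.09 to 7.37) in P14, 9.01 CPM (7.47 to 10.8) in the adult control, 5.79 CPM (4.77 to 6.96) at 24 h, 9.17 CPM (7.91 to 10.6) at 48 h and 15.3 CPM (13.3 to 17.6) at 96 h. Atf4 and Ddit3 were thus highest at 96 h, both above every other library's interval (for Atf4 88.4 to 98.8 CPM at 96 h against 76.8 to 84.5 CPM at 48 h).

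**Figure D1:**
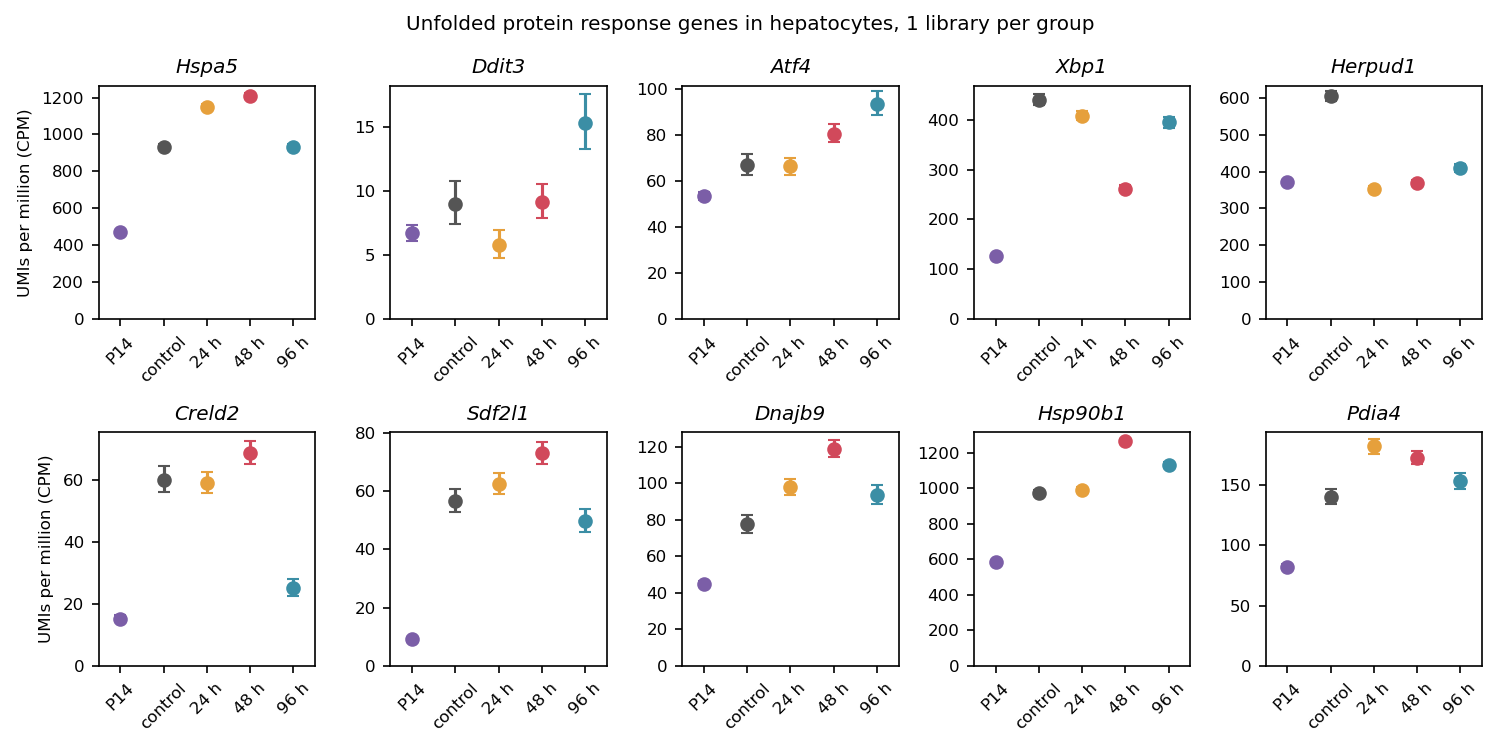
Each panel plots 1 gene, with the library on the x axis (P14, adult control, and 24, 48 and 96 h after PHx) and the CPM of summed hepatocytes on the y axis, starting at 0; bars are 95% exact Poisson intervals. P14 was lowest for 8 of 10 genes in CPM (7 of 10 with TMM scaling), 48 h was highest for 5, and Ddit3 and Atf4 were highest at 96 h.

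The order of the libraries was read against all genes of at least 5 CPM in any library. P14 was the lowest library for 8 of 10 members (all but Ddit3 and Herpud1), against 45.5% of all genes, and 24 h for the other 2 members, against 15.5%. With TMM scaling, which adjusts for composition, P14 was lowest for 7, because Atf4 was then lowest in the adult control. The share of all genes lowest in P14 was computed without TMM scaling only. The highest library was 48 h for 5 members (Hspa5, Creld2, Sdf2l1, Dnajb9 and Hsp90b1), against 14.5% of all genes. The adult control was highest for Xbp1 and Herpud1 (27.6% of all genes), 96 h for Ddit3 and Atf4 (17.2%), 24 h for Pdia4 (24.3%) and P14 for no member (16.4%). The highest library was the same for every member with TMM scaling.

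After PHx, differences from the adult control were small. At 24 h none of the 10 members was at least 2-fold higher (8.51% of all genes were) and none at least 2-fold lower (7.13%). The members farthest down were Herpud1 at -0.78 (-0.82 to -0.73) and Ddit3 at -0.56 (-1.02 to -0.26), Pdia4 was farthest up at 0.37 (0.30 to 0.46), all log2, and the members' median was 0.01 against -0.00 over all genes. In the 328 barcodes at 24 h and 150 of the adult control under 10% mitochondrial UMIs, the median was -0.27 (-0.69 over all genes), and Sdf2l1 at 1.19 and Herpud1 at -1.38 passed 2-fold. Pdia4 was at -0.20 and Hspa5 at -0.34 there. Whether barcodes under 10% hold cells other than hepatocytes was not tested, here and below. The Alb, Apoa1 and Ttr share had medians of 2.20% in erythroid-marker and 1.58% in endothelial-marker barcodes of the adult control. At 24 h these medians were 0.526% and 0.310%, and at 96 h 1.36% and 1.23%. At 48 h again none was past 2-fold (8.3% of genes higher, 7.63% lower). A ratio above 0 was held by 5 of 10 members at 24 h (4511 of 9028 genes). It was held by 8 at 48 h (4031 of 9035 genes) and 6 at 96 h (4806 of 8890 genes). At 48 h the median was 0.28 against -0.08 over all genes. Dnajb9 was farthest up at 0.61 (0.51 to 0.72), and Xbp1 at -0.75 (-0.80 to -0.70) and Herpud1 at -0.71 (-0.76 to -0.67) were the members farthest down. In the 116 cells at 48 h and 87 adult control cells with 10% to 20% mitochondrial UMIs the 48 h median was 0.094. Under 10% mitochondrial UMIs (176 barcodes at 48 h) it was 0.45 (-0.62 over all genes), and Sdf2l1 at 1.75, Dnajb9 at 1.12 and Herpud1 at -1.19 passed 2-fold.

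At 96 h, Creld2 was the only member past 2-fold, lower by a log2 ratio of -1.22 (-1.44 to -1.07); 1.88% of all genes were at least 2-fold lower and 4.07% higher. Ddit3 stood at 0.71 (0.43 to 1.10) and Atf4 at 0.47 (0.36 to 0.61), and the median was 0.06 against 0.04 over all genes. Between operated libraries, no member was past 2-fold from 24 h to 48 h (1.78% of genes higher, 1.76% lower), and Creld2 alone from 48 h to 96 h, at -1.41 (4.24% of genes lower, 4.38% higher). Creld2 at 96 h was just short of the 2-fold call with a pseudocount of 10 CPM (-0.99) and in barcodes under 10% mitochondrial UMIs (-0.98), and past it in the other 12 settings. With 10% to 20% mitochondrial UMIs (53 cells at 96 h) Atf4 was at 0.0096. In cells with at least 5% Alb, Apoa1 and Ttr UMIs (545 at 96 h, 47 of the adult control) Ddit3 also passed 2-fold, at 1.21. Under 10%, in 684 barcodes at 96 h, the members' median was -0.49 (-0.45 over all genes) and Herpud1 at -1.35 passed 2-fold. The 96 h library stood apart in mitochondrial share: 1703 barcodes of at least 5000 UMIs lay above 30%, against 420 to 501 in the other libraries, and 206 hepatocytes lay within 2 points below that limit and 230 barcodes within 2 points above it. The part of this in the 96 h ratios was not tested.

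**Figure D2:**
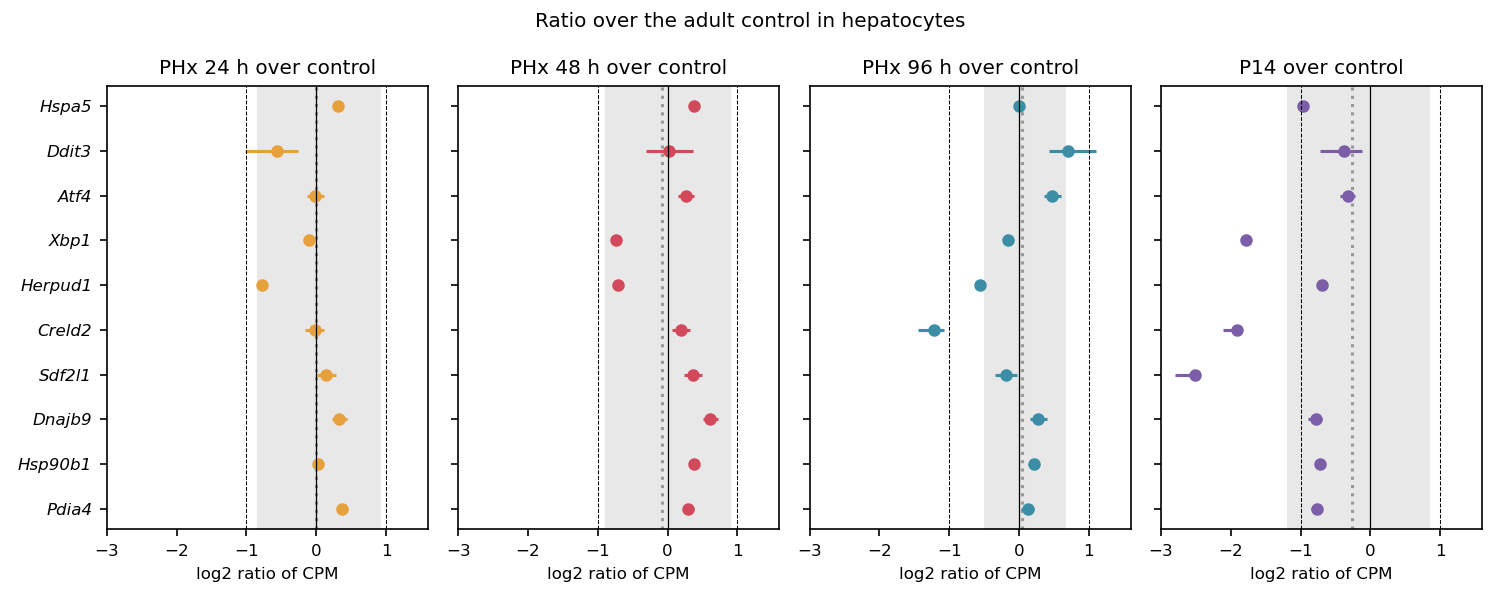
Each panel plots the log2 ratio of CPM over the adult control on the x axis for the 10 genes, with 95% intervals for counting error; dashed lines mark 2-fold, the grey band holds the 10th to 90th percentile of all tested genes and the dotted line their median. Creld2 at 96 h and Sdf2l1, Creld2 and Xbp1 in P14 lie past 2-fold; Atf4 in P14 lies at -0.32 here and at 0.01 with TMM scaling.

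P14 was compared with the adult control, 1 library each, so a ratio describes these libraries and not age alone. The libraries also differed in median UMIs per hepatocyte (38922.5 in P14 against 18527). The median Alb, Apoa1 and Ttr share was 11.2% in P14 against 2.86%. The ratio of all 10 members was below 0, while 3201 of 9011 tested genes were above 0. Under other settings, Atf4 was at 0.01 with TMM scaling, and Ddit3 at 0.02 in cells with at least 5% Alb, Apoa1 and Ttr UMIs. Ddit3 and Hsp90b1 were at 0.10 and 0.13 in barcodes under 10% mitochondrial UMIs. Sdf2l1 was lower by -2.52 (-2.80 to -2.49), Creld2 by -1.91 (-2.11 to -1.84) and Xbp1 by -1.78 (-1.84 to -1.74), so 3 of 10 members were at least 2-fold lower against 13.8% of all genes, and none higher against 7.89%. Hspa5 lay just short of 2-fold at -0.97 (-1.001 to -0.94) and passed it in 2 of 14 other settings. With at least 5% Alb, Apoa1 and Ttr UMIs (47 adult control cells), Hspa5 was at -1.18 and Hsp90b1 at -1.11. The members' median was -0.77 against -0.26 over all genes; TMM scaling moved the median of all genes to 0.08 and that of the members to -0.43, and left the 3 calls in place. In barcodes under 10% mitochondrial UMIs, of which P14 had 124 and the adult control 150, the median was -0.19 (-0.05 over all genes) and Creld2 was at -0.34, short of the call, while Sdf2l1 stayed at -1.12 and Xbp1 at -1.44. Because the adult control is the library with contradictory labels, P14 was also set against each operated library, an alternative chosen after seeing the data. The medians were then -1.12 over 24 h, -1.08 over 48 h and -0.96 over 96 h, and 6, 7 and 4 members were past 2-fold against 24.6%, 20.2% and 14.8% of all genes, higher or lower. Creld2 was at -0.69 over 96 h, short of the call. Ddit3 and Herpud1 were above 0 over 24 h, at 0.18 and 0.08, and Herpud1 was at 0.01 over 48 h. With a call at 1.5-fold over the adult control in either direction, 1 member passed at 24 h (36.4% of all genes), 3 at 48 h (37%), 2 at 96 h (19.3%) and 8 in P14 (45.5%).

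Some cytosolic heat shock genes, which respond to handling and heat, were highest in the adult control, and others of the same list were not. Hspa1b, an inducible cytosolic Hsp70, was at 52.3 CPM in the adult control against 1.72 CPM in P14 and 10.5, 5.28 and 19.5 CPM at 24, 48 and 96 h. Hsph1 was at 134 CPM against 18.6, 63.1, 29.7 and 26.6 CPM, and Hspa8, the constitutive member, at 1006 CPM against 832, 599.6, 479 and 411 CPM in the same order. Hspe1, a mitochondrial chaperonin subunit of the list, was instead lowest in the adult control, at 484 CPM against 647, 917, 585 and 637 CPM, and Hsp90aa1 was at 367 CPM there against 602 and 544 CPM at 24 h and 48 h. The immediate early genes Fos and Jun had another order, with 31.5 and 42.2 CPM in the adult control, 70.9 and 97.5 CPM at 96 h, and 16.0 and 60.9 CPM in P14. Of the 15 tested genes of that list, 2, 3 and 3 were at least 2-fold lower at 24, 48 and 96 h, 0, 2 and 2 higher, and in P14 4 were lower and 1 higher. Of all genes, 7.13%, 7.63%, 1.88% and 13.8% were lower and 8.51%, 8.3%, 4.07% and 7.89% higher in the same 4 comparisons, and these shares stand behind the list counts that follow too. The list's medians were 0.19, -0.19, -0.05 and -0.45. The part of these differences in the members' ratios over the adult control was not tested.

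Other genes of the response were taken from lists. Of 10 sensors and regulators, none was at least 2-fold apart at 24 h or 96 h. Ern1, which encodes the sensor IRE1 alpha, was lower at 48 h (-1.15), with levels of 31.99 CPM in the adult control, 17.99, 13.9 and 23.7 CPM at 24, 48 and 96 h, and 11.9 CPM in P14 (-1.35). Eif2ak3, which encodes PERK, was at 8.19 CPM in the adult control and 10.9, 14.4 and 12.7 CPM after PHx, short of 2-fold. The list's medians were -0.21, -0.06 and -0.30 after PHx and -0.62 in P14, where 2 of the 10 were lower (13.8% of all genes) and none higher (7.89%).

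Of 19 further chaperones and folding enzymes, 1 was at least 2-fold higher and none lower at each time after PHx, namely Fkbp11, a prolyl isomerase of the secretory pathway, at 27.0 CPM in the adult control and 56.6, 72.0 and 77.2 CPM at 24, 48 and 96 h. In P14, 7 of the 19 were lower (13.8% of all genes) and none higher (7.89%), with a median of -0.74. The lowest was Hyou1, a large Hsp70-like partner of BiP, at 13.9 CPM in P14 against 85.3 CPM in the adult control (-2.53). Of 17 genes of degradation and export, Derl3, a channel component for misfolded proteins, was at 8.94 CPM in the adult control and 0.512, 1.06 and 1.19 CPM after PHx, and at 0.170 CPM in P14. Selenos, a selenoprotein of the same machinery, was higher at 48 h (1.30), at 313 CPM against 126 CPM. This list had 0, 2 and 0 genes at least 2-fold higher and 2, 1 and 1 lower at 24, 48 and 96 h. It had 5 genes lower and none higher in P14, with a median of -0.69, so the 3 lists of the reticulum had medians of -0.62 to -0.74 in P14, beside -0.26 over all genes and -0.77 over the members.

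The targets of Atf4 and Ddit3 did not share 1 direction. At 24 h, 4 of 15 tested were at least 2-fold higher and 2 lower, at 48 h 3 of 14 higher and 1 lower, at 96 h 1 of 13 higher and 1 lower, and in P14 1 of 13 higher and 2 lower. Of all genes, 8.51%, 8.3%, 4.07% and 7.89% were higher and 7.13%, 7.63%, 1.88% and 13.8% lower. Gdf15, a secreted stress cytokine, was at 3.08 CPM in the adult control and 24.95, 21.8 and 25.7 CPM at 24, 48 and 96 h. Mthfd2, a mitochondrial folate enzyme, was at 4.81 CPM in the adult control and 18.5, 16.2 and 6.25 CPM. Trib3, a pseudokinase that lies downstream of CHOP, went from 7.58 CPM in the adult control to 1.49 and 1.54 CPM at 24 h and 48 h and stood at 4.84 CPM at 96 h, and Chac1, a glutathione-degrading enzyme, from 5.03 to 0.820, 2.30 and 1.79 CPM. Vldlr, a lipoprotein receptor, was at 7.96 CPM in P14 and 0.0751 CPM (1 UMI) in the adult control. At 96 h, where Ddit3 was highest, Gdf15 stood about where it was at 24 h, where Ddit3 was lowest, while Trib3 and Chac1 were below the adult control, Trib3 short of 2-fold.

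The per-cell spread was read after thinning every hepatocyte to 3500 UMIs without mitochondrial genes, which left out no cell. Hspa5 was detected in 78.7% (76.9% to 80.4%) of P14 hepatocytes, 95.2% of the adult control, and 98.1%, 98.3% and 93.5% at 24, 48 and 96 h. Xbp1 was detected in 35.2% (33.1% to 37.3%) of P14 cells, 75.8% of adult control cells, and 72.6%, 63.0% and 73.5% of the cells after PHx. As in the levels, P14 was lowest for both, and Hspa5 was highest at 48 h and Xbp1 in the adult control. Creld2 was detected in 4.56% (3.71% to 5.54%) of P14 cells, 19.0% of adult control cells, 18.3% and 21.6% at 24 h and 48 h, and 8.17% (6.34% to 10.3%) at 96 h, and Sdf2l1 in 2.99%, 18.9%, 19.3%, 21.1% and 15.4%. Ddit3 was detected in 1.97% to 4.93% of thinned cells, so most cells gave no UMI of it at this depth. Without thinning the shares depended on depth: Ddit3 reached 20.03% at 48 h against 12% in the adult control, while at equal depth it was 2.09% (1.17% to 3.42%) against 3.46% (2.38% to 4.85%), and Atf4 reached 76.3% in P14 against 56.9% in the adult control, while at equal depth it was 17.5% against 20.1%.

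**Figure D3:**
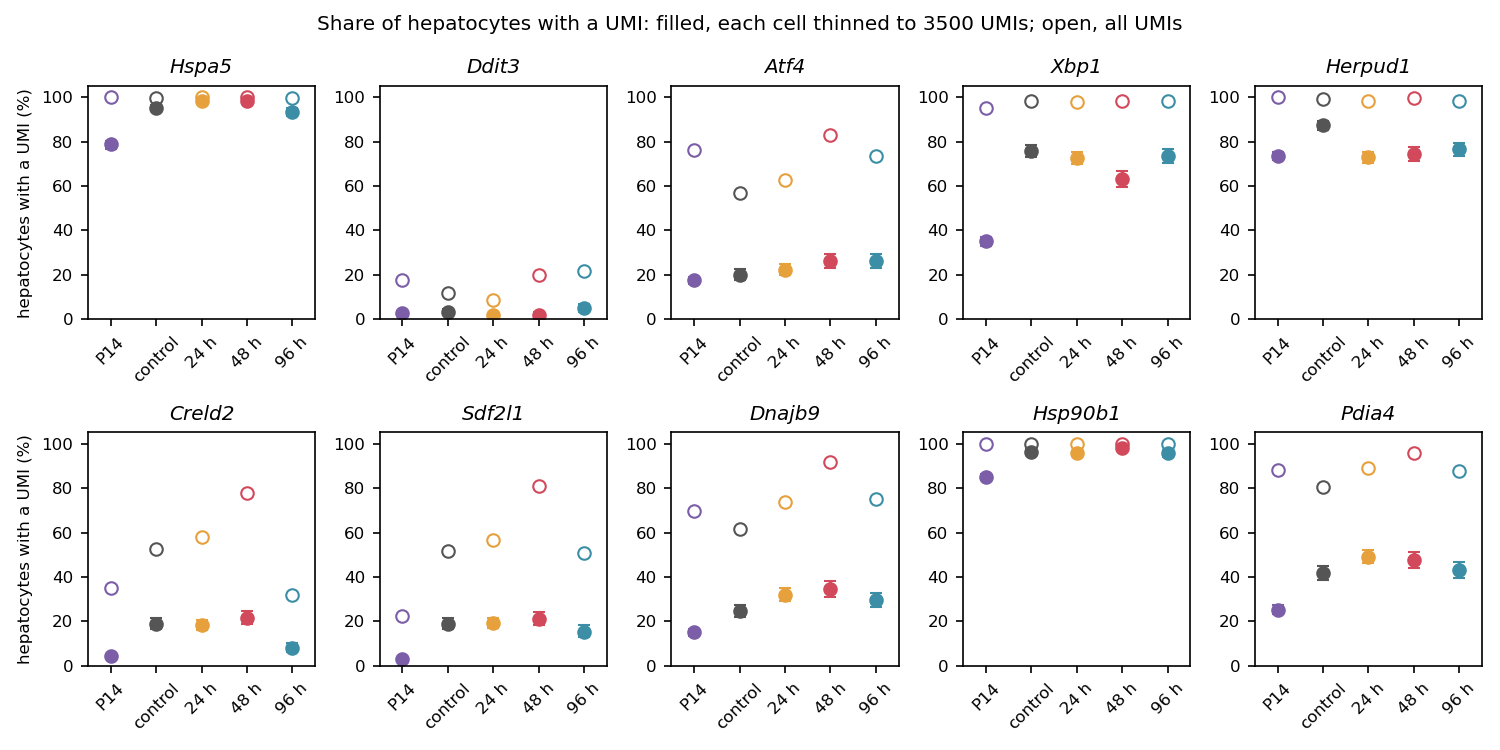
Each panel plots, for 1 gene, the percentage of hepatocytes with at least 1 UMI on the y axis and the library on the x axis; filled points are cells thinned to 3500 UMIs with 95% exact binomial intervals, open points all UMIs. At equal depth Xbp1 was detected in 35.2% of P14 cells and in 63.0% to 75.8% of adult cells, whereas open points lie at 95.3% to 98.3% in all libraries.

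The variance over the mean of thinned counts (the Fano factor, 1 for counting noise alone) lay between 0.926 and 1.38 over the 10 members and 5 libraries. Thinning itself holds sparse genes near 1, so this says little of members other than Hspa5, Hsp90b1, Herpud1 and Xbp1, whose means were highest. The highest value, Hspa5 at 96 h (1.38), stood beside a median of 1.33 over 91 genes of like mean (neither mean over 25% above the other), and Hsp90b1 at 96 h (1.38) beside 1.37 over 78 genes. At 24 h Hspa5 had 1.25 against 1.56 over 51 genes of like mean, above 15.7% of them, and in P14 it had 1.20 against 1.13 over 122 genes, above 79.5%. In unthinned cells of the adult control the 10th to 90th percentile spanned 527 to 1444 CPM for Hspa5, with a median of 910.5 CPM; at 48 h it spanned 811 to 1865 CPM with a median of 1249.6 CPM. Correlations between members across cells are held near 0 by counting noise at this depth, and are given as values only. The highest of 45 pairs, Hspa5 with Hsp90b1, had a mean Spearman rho of 0.0925 (0.0477 to 0.156 over the 5 libraries, 719 to 2106 cells each), and cells of a library share its preparation.

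The genes most like each member across hepatocytes were found among 2770 genes by the mean over libraries of Pearson's r of log thinned counts. For Hspa5 they were Fga (0.169), Fgg (0.151) and Cp (0.136), which encode fibrinogen chains and ceruloplasmin, and for Hsp90b1 they were Fgg (0.154), Fgb (0.152) and Alb (0.151). Pdia4 was most like Calr (0.0767), a lectin chaperone, Cp (0.0767) and Fgg (0.0751). Herpud1 was most like Fga (0.110), Cps1 (0.0990) and P4hb (0.0979), the last a disulfide isomerase. For Xbp1 they were Fga (0.0896), Selenop (0.0737) and Cp (0.0693), and for Dnajb9 Fga (0.0715), Hmgcs1 (0.0714) and the member Hspa5 (0.0649). These correlations are weak. The ranking was not adjusted for abundance, and counting noise holds r nearer to none for sparse genes than for abundant ones. Ddit3, Atf4, Creld2 and Sdf2l1 had no gene above 0.0614.

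Dividing hepatocytes were compared with others of the same library, since PHx libraries differ in how many cells divide. After thinning, a cell with UMIs of at least 3 mitosis genes was called cycling, and a cell with 0 mitosis genes and no more than 1 replication gene was called non-cycling. There were 222 and 1323 such cells in P14, 144 and 389 at 24 h, 270 and 212 at 48 h, and 56 and 532 at 96 h; the adult control had 5 cycling cells and was not compared. The member Dnajb9 was at 33.7 CPM in cycling and 45.1 CPM in non-cycling cells of P14, 62.3 and 107 CPM at 24 h, 93.8 and 142 CPM at 48 h, and 56.5 and 102 CPM at 96 h. Its log2 ratios were -0.41, -0.77, -0.60 and -0.84, with intervals below 0 in all 4 libraries. Pdia4 was at -0.29, -0.63, -0.58 and -0.61 and Hspa5 at -0.58, -0.37, -0.19 and -0.48, also with intervals below 0 in all 4. Hsp90b1 was at 0.13, -0.01, 0.18 and 0.00 in the same order.

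The median of the members in cycling over non-cycling cells was 0.09, -0.25, -0.17 and -0.54 in P14 and at 24, 48 and 96 h, against 0.25, 0.17, 0.19 and 0.22 over all genes. Creld2 at 96 h (-1.04, -1.96 to -0.35) was the only member past 2-fold in any of the 4 libraries, where 0.123%, 0.576%, 0.586% and 2.02% of all genes were at least 2-fold lower and 9.24%, 9.2%, 7.8% and 10.1% higher. Sdf2l1 was the member farthest up, at 0.66 (0.37 to 1.05) in P14, while after PHx it was at -0.14, -0.08 and -0.33 with intervals that held 0. Cycling cells held more UMIs than non-cycling cells after PHx (41535 against 34220.5 at the median at 48 h) and fewer in P14 (37483 against 40086), and the part of depth in these ratios was not tested.

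**Figure D4:**
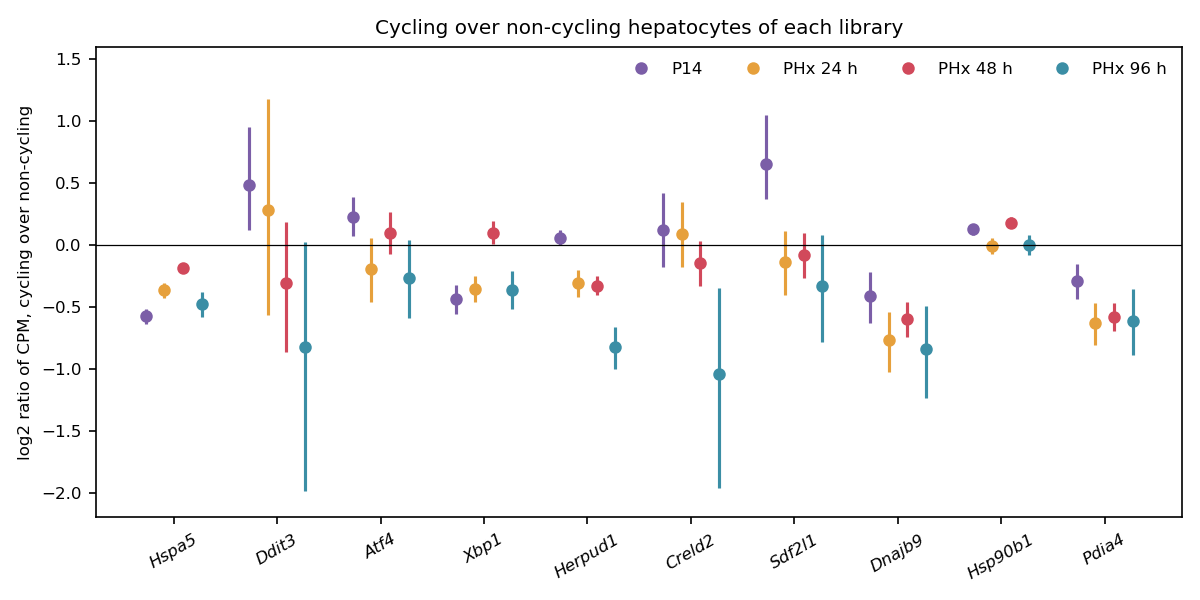
The y axis is the log2 ratio of CPM in cycling over non-cycling hepatocytes, the x axis the 10 genes, with 1 coloured point per library and 95% intervals for counting error. Dnajb9, Pdia4 and Hspa5 lie below 0 in all 4 libraries, and Hsp90b1 lies between -0.01 and 0.18.

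Position in the lobule was approximated by the ratio of pericentral to periportal genes, each library's hepatocytes were ranked by that score, and the most pericentral 702, 308, 390, 239 and 257 cells (P14, adult control, and 24, 48 and 96 h) were set against as many of the most periportal; these are ranges, not cell types, and 191 to 1030 cells of a library lay within 0.5 of a limit of the score. No member was past 2-fold in any library, where 2.15% of all genes were past it in P14, 2.84% in adult control liver, and 2.82%, 2.75% and 5.25% after 24, 48 and 96 h, higher or lower. Xbp1 was at 0.12 for P14, -0.12 for the adult control, and -0.18, -0.19 and -0.56 at 24, 48 and 96 h, and Hspa5 at 0.14, -0.15, -0.11, -0.18 and -0.47. Both ratios were thus below 0 in the 4 adult libraries and above 0 in P14. At 96 h, Hspa5 stood at 780 CPM pericentrally and 1083 CPM periportally, but the 2 ranges also differed in depth (26163 against 19073 UMIs at the median). Hsp90b1 was at 0.06 for P14, -0.18 for the adult control and -0.20, -0.45 and -0.24 after PHx. Pdia4 lay on the pericentral side in 4 libraries (0.25, 0.21, 0.19 and 0.16) and at -0.26 at 24 h.

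Free RNA was measured in empty droplets (barcodes ranked by UMIs after the first 20000 and up to rank 60000), which held a median of 287 to 1330 UMIs. Hspa5 was at 226 CPM in the free RNA of P14, 696 CPM in the adult control, and 371, 393 and 238 CPM after PHx, below the hepatocytes of the same library each time. Ddit3 in free RNA was at 7.06, 7.79, 8.78, 10.6 and 16.6 CPM in the same order, above the interval of the hepatocytes at 24 h and 48 h and within it in the other libraries. Sdf2l1 in free RNA was at 11.1, 41.4, 68.2, 94.0 and 73.6 CPM, above the interval of the hepatocytes in all libraries but the adult control, where it was below. Atf4 in free RNA was at 58.1, 67.1, 82.2, 104 and 86.1 CPM, above that interval in P14 and at 24 h and 48 h, within it in the adult control and below it at 96 h. Pdia4 and Dnajb9 in free RNA of the adult control were at 164.8 and 79.6 CPM, the first above its interval in hepatocytes and the second within it. Had each hepatocyte held as many free UMIs as an empty droplet, they would make up 0.297% to 10.8% of a member's UMIs, most in the adult control (Pdia4) and least at 48 h (Hsp90b1), and for Ddit3 1.12% to 7.95%. Subtracting them changed no sign and no 2-fold call over the adult control.

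In other cells, classed by at least 3 markers of a cell type in barcodes of at least 1500 UMIs, levels were read beside the free RNA of the same library. Some classes are shallow, with a median of 2201 UMIs for endothelial barcodes of the adult control, where an empty droplet held 1330. Others are deeper, up to a median of 22219 UMIs for monocyte or macrophage barcodes of P14, where an empty droplet held 460. In barcodes with T or NK markers (79 to 704 per library) Hspa5 was at 225 to 407 CPM and Xbp1 at 48.8 to 111 CPM, both below the hepatocytes of the same library. Xbp1 was also below the free RNA in all 5 libraries. Hspa5 was below it in the adult control and at 24 h and 48 h. It was above the free RNA in P14 (281 against 226 CPM), and its interval held the free RNA at 96 h (225 against 238 CPM). How much of these levels came from free RNA was not tested. Of the 304 Xbp1 UMIs of this class at 48 h, 59 came from 1 barcode, which held 573 UMIs of Jchain. Without that barcode the level was 77.0 CPM, against 95.5 CPM with it. Of the 1808 Hspa5 UMIs of this class in the adult control, 111 came from 1 barcode, which held 294 UMIs of Jchain. In barcodes with monocyte or macrophage markers (21 to 46) Sdf2l1 was at 243, 229, 210.3 and 235 CPM in P14 and at 24, 48 and 96 h, against 9.07, 62.6, 73.0 and 49.9 CPM in hepatocytes and 11.1, 68.2, 94.0 and 73.6 CPM in free RNA; the adult control had 18 such barcodes, too few to compare. Xbp1 in plasmacytoid dendritic barcodes (54 to 140) was at 416 CPM in the adult control and 371, 414.5 and 440.3 CPM at 24, 48 and 96 h, above the free RNA (283, 211, 161 and 165 CPM). Against hepatocytes of the same libraries it was higher beyond its interval at 48 h alone, where hepatocytes had 262 CPM. At 96 h, 47 of its 209 UMIs came from 1 of 54 barcodes, which held 561 UMIs of Jchain, and without it the level was 341 CPM. Hsp90b1 in neutrophil barcodes (49 to 198) was at 306 CPM in P14, 391 CPM in the adult control, and 125, 45.2 and 81.8 CPM at 24, 48 and 96 h, below the hepatocytes of each library and, but for P14, below the free RNA (249 to 719 CPM); 79 of the 142 UMIs in P14 came from 1 barcode, without which the level was 136 CPM.

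Single barcodes carried some class levels. In P14 endothelial barcodes, Ddit3 was at 106 CPM, but 21 of its 26 UMIs came from 1 of 34 barcodes, and without it the level was 20.4 CPM. At 24 h, Hsp90b1 in endothelial barcodes was at 2545 CPM, against 991 CPM in hepatocytes, and it was spread over 109 of 115 barcodes, the highest holding 36 of 1072 UMIs. It was at 879 and 1514 CPM in endothelial barcodes of P14 and the adult control, above the hepatocytes too, and at 1145 and 436 CPM at 48 h and 96 h, against 1264 and 1130.1 CPM in hepatocytes. All 5 were above the free RNA of their library. Creld2 in plasmacytoid dendritic barcodes at 96 h was at 320.2 CPM, with 122 of 152 UMIs in 1 barcode, which also held 588 UMIs of Jchain; without it the level was 63.2 CPM.

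Several members reached their highest levels in a few barcodes of the B-marker class that carried Jchain, the joining chain of secreted antibodies, known of antibody-secreting cells. Jchain was not among the markers and was chosen after its values were seen. Barcodes with Jchain also occurred in the T or NK and plasmacytoid dendritic classes, which were not split by it. The B-marker class fell into 2 sets with a wide gap: the lowest Jchain count in the upper set was 133 UMIs and the highest in the rest was 2 UMIs. There were 5 of 181 such barcodes in adult control liver, 10 of 89 at 24 h, 16 of 328 at 48 h, 2 of 332 at 96 h and 0 of 100 in P14, and they were deeper, with medians of 17695 to 27874 UMIs against 3262 to 4497 in the rest of the same 4 libraries. Hsp90b1 was at 4118, 5599.5, 5750.2 and 4804 CPM in them in the adult control and at 24, 48 and 96 h, against 414, 249.9, 253 and 215 CPM in the rest of the class. Sdf2l1 was at 549.6, 1059.6, 768 and 889.7 CPM against 36.8, 67.3, 50.3 and 29.4 CPM. Xbp1, which is required for antibody secretion, was at 1071, 1206, 1514 and 445 CPM against 120.1, 128, 73.7 and 75.6 CPM. Ddit3 had 2, 0, 8 and 0 UMIs in these barcodes, too few to compare. At 24 h the 10 barcodes held 94.0% of the class's Hsp90b1 UMIs and 91.7% of its Sdf2l1 UMIs, and the level of the whole class counts them in. The share of all UMIs of the class in these deeper barcodes was not computed.

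**Figure D5:**
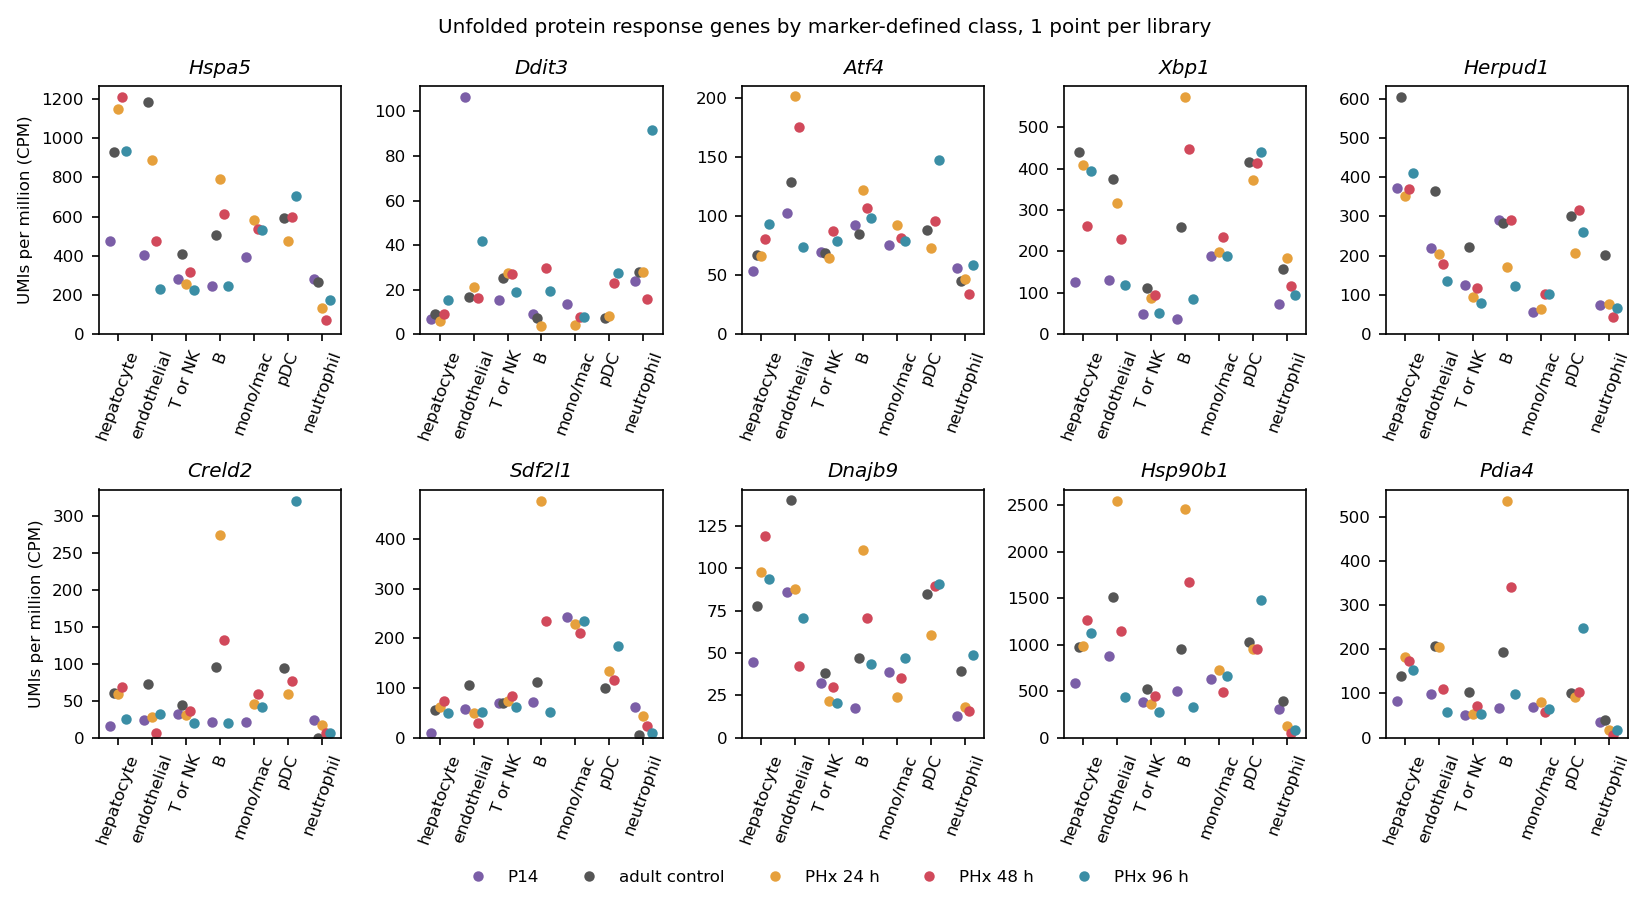
Each panel plots 1 gene, with the marker-defined class on the x axis (mono/mac, monocyte or macrophage; pDC, plasmacytoid dendritic) and CPM on the y axis from 0, 1 point per library with at least 20 barcodes of the class. Points of the B class spread widely for Sdf2l1, Creld2, Hsp90b1, Pdia4 and Xbp1, from 51.9 to 476 CPM for Sdf2l1 among the adult libraries, and the Ddit3 point of P14 endothelial barcodes at 106 CPM rests on 1 barcode.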

How the data were processed

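The deposited matrices held whole-number UMI counts per gene and barcode, not normalized, 1 matrix per library, and were written by software version 3.0.2 per the file headers. The submitters' processing notes name bcl2fastq 2.17.1.14, Cell Ranger, Seurat 3.1 and the mm10 build; the annotation is not given in the sources used here. Each matrix lists 31053 genes and 6794880 barcodes, empty droplets included, with 80927744 to 136110607 UMIs per library. The 10 members and the gene lists were chosen with earlier results of these data known.

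Counts were summed over the hepatocytes of a library and scaled to CPM without the 13 mitochondrial genes (13316829 to 64576753 UMIs per library). Intervals are exact Poisson for levels, exact conditional binomial for ratios and exact binomial for shares, at 95%, and cover counting error only; UMIs of a cell are not independent samples of a condition. No test was run, because each group has 1 library. Doublets were not removed, and removal with Scrublet (scanpy 1.11.5, the highest scores at 0.8% per 1000 barcodes, 70 hepatocytes over the 5 libraries) was an alternative. TMM factors came from edgeR 4.0.16; other steps used Python 3.11.15 with numpy 2.4.6 and scipy 1.17.1. The ratio computation was tested on simulated counts. From each list the genes named were those with the largest and smallest ratio in any comparison with the adult control and those past 2-fold at 2 or more times after PHx, all with 5 CPM or more in either library compared; Hspe1 and Hsp90aa1 were chosen after their values were seen. For likeness, the 3 genes of highest mean correlation were named, among genes seen in at least 10% of thinned hepatocytes of every library. Those of Ddit3, Atf4, Creld2 and Sdf2l1 were left unnamed. A class with erythroid markers was left out, since 798 of its 1270 adult control barcodes had just 3 markers, the minimum. Protein sequences were not used here. Results were recomputed under 16 other settings; other references for P14, medians relative to all genes and the Jchain split of B-marker barcodes were added after seeing the data.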

Additional observations from a re-analysis of the deposited data

How the results depend on the processing

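Of 40 member ratios over the adult control, 21 kept their sign under every setting planned and run for that ratio (14, or 13 for Ddit3). Medians over the members are given here in the order 24 h, 48 h, 96 h and P14 over the adult control. In barcodes under 10% mitochondrial UMIs they were -0.27, 0.45, -0.49 and -0.19, with 2 members past 2-fold at 24 h and 3 at 48 h. With at least 5% Alb, Apoa1 and Ttr UMIs they were -0.39, -0.48, -0.00081 and -0.90, with 3, 1, 2 and 5 members past 2-fold, but this left 47 adult control cells, 6 from 24 h and 2 from 48 h. Over all genes the medians were -0.69, -0.62, -0.45 and -0.05 under 10% mitochondrial UMIs. They were -0.10, -0.15, 0.28 and 0.04 with at least 5% Alb, Apoa1 and Ttr UMIs. The share of all genes past 2-fold was not computed in these settings. With 10% to 20% mitochondrial UMIs the median was 0.094 at 48 h and -0.91 in P14. For P14 it was -0.68 over all UMIs, -0.43 with TMM factors and, chosen after seeing the data, -0.51 relative to all genes and -1.12, -1.08 and -0.96 over 24 h, 48 h and 96 h, the first 2 with 6 and 7 members past 2-fold. Non-cycling cells gave 0.16 at 96 h. A pseudocount of 10 CPM left 0 members past 2-fold at 96 h, and a 1.5-fold call gave 1, 3, 2 and 8 members. The cause of these changes was not tested. All 4 medians stayed within set limits after removing doublets, subtracting free RNA, weighting cells equally or with a minimum of 2000 or 10000 UMIs. They also did so with 20% to 30% mitochondrial UMIs and with members of at least 50 CPM. The limits were the median of the members' lower counting limits and that of their upper ones, not an interval of the median itself. Shares of cells with a UMI depended on thinning, as shown by the plot of shares. No paired analysis was possible because each group has 1 library. Depth limited Ddit3 most, with 113 to 433 UMIs in the hepatocytes of a library.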
